A study of Caenorhabditis elegans with 6 samples.

Results

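The mitochondrial ribosomal protein genes of C. elegans were examined in the RNA of AB and P1, the 2 blastomeres of the 2-cell embryo. Genes were taken by a name that starts with mrpl- (large subunit) or mrps- (small subunit). Only 2 rows of the deposited tables, mrpl-41 and mrps-5, carry such a public name, because most of these genes stand there under older names. Applying the same rule to the current WormBase names of the same identifiers gave 67 of the 20240 gene models, 40 mrpl- and 27 mrps- genes, and these 67 are the members described here. The name table lists 70 such names. The other 3, mrps-16, mrpl-42 and mrps-18A, were not matched to a row of their own and were not analysed here.

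Mitochondria keep a small genome that encodes a few subunits of the respiratory chain, and they translate it on their own ribosomes. The proteins of these ribosomes are encoded in the nucleus, made in the cytoplasm and imported. Some have counterparts in bacterial ribosomes and carry the bacterial number, and others are found only in mitochondria. In C. elegans, lowering mrps-5 or other mitochondrial ribosomal proteins extends lifespan and induces the mitochondrial unfolded protein response. Before zygotic transcription starts, the transcripts of the 2-cell embryo are maternal.

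The series holds 3 AB and 3 P1 libraries. Embryos came from gravid adults of the wild-type strain N2 kept at 20 °C and fed OP50 bacteria, their eggshells were removed with bleach followed by a chitinase and chymotrypsin mixture, and the cells were separated by hand. AB, the anterior cell, is larger than P1, the posterior cell that keeps the germline fate. Matched AB and P1 cells were pooled for each replicate number, and no gene was altered and no agent was given to one cell only. RNA was amplified by in vitro transcription from oligo-dT primed cDNA before sequencing (RNA-amp-seq). The authors deposited raw read counts and counts scaled by a size factor for each library, referred to below as normalized read counts. Both are relative within a library, so the number of transcripts per cell was not measured, and less of a transcript cannot be told apart from more of the other RNA in the same cell.

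Library totals ran from 21249850 to 35591254 counts, so that 3 counts equal 0.0843 to 0.141 CPM. This floor covers counting error only, since amplified reads are not independent molecules. The AB marker mex-3, an RNA-binding protein gene, was lower in P1 (log2 fold change -0.98, adjusted P = 0.068 with edgeR). The genes taken as P1 markers, nos-2, cey-2 and pos-1, had log2 fold changes of 0.40, 0.47 and 0.18 and were not called. The paper places the loss of nos-2 from somatic cells after the 2-cell stage. From earlier in situ work it describes cey-2 as uniform early in the 2-cell stage and P1-enriched late in it, and pos-1 as P1-enriched. In its own data both were higher in P1, but neither met its adjusted P threshold. Of 36 marker genes of adult intestine, muscle, hypodermis and sperm, 30 had no read in any library, and 3 were present, the yolk protein genes vit-2, vit-5 and vit-6. The summed level of all 36 was 9.38, 0.0843 and 2.14 CPM in AB replicates 1 to 3 and 10.96, 0.301 and 0.0762 CPM in P1 replicates 1 to 3. Replicate 1 was thus the highest in both cells, where vit-6 had 133 and 136 normalized read counts and vit-2 had 101 and 114 in AB and P1.

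A gene was called present when its mean over all libraries exceeded 10 normalized read counts and both cells had reads. All 67 members were present, as were 7945 gene models in all, so that no member was lost to this filter. The members took 0.286 to 0.362% of the counts in the AB libraries and 0.347 to 0.397% in the P1 libraries, and these ranges overlapped. Their median level was 1303 normalized read counts per kb of spliced length, against 831 for all present gene models. Without division by length the order was the reverse, with medians of 1109 normalized read counts for the members and 1247 for all present gene models. Per-length levels depend on an amplification that starts at the poly(A) tail, whose effect on them was not tested.

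mrpl-44, whose product carries a ribonuclease III-like domain in mammals, had the highest level per length, 6150 normalized read counts per kb in AB and 6282 in P1. It was among the members with the least spread between the P1 libraries, with a coefficient of variation of 5.02%. Its normalized read counts were 11603, 10545 and 10417 in AB replicates 1 to 3 and 11036, 11669 and 10559 in P1 replicates 1 to 3, so the cells overlapped. mrpl-51, mrpl-34 and mrpl-40 followed with 4529, 4309 and 4261 normalized read counts per kb over all libraries.

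At the other end, mrpl-45 stood far below the rest with 4.88 normalized read counts per kb. In mammals its product lies where the ribosome meets the inner membrane. Its raw counts were 7, 4 and 11 in AB and 10, 8 and 21 in P1, too few for the fold change to be read closely. The next lowest were mrps-31 with 72.2, mrpl-46 with 118 and mrpl-22 with 348 normalized read counts per kb. Above these the members formed a continuous range. Of the 66 adjacent steps in the order of levels, 63 were smaller than the larger SD over the 6 libraries, so most neighbours in this order were not resolved.

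**Figure D1:**
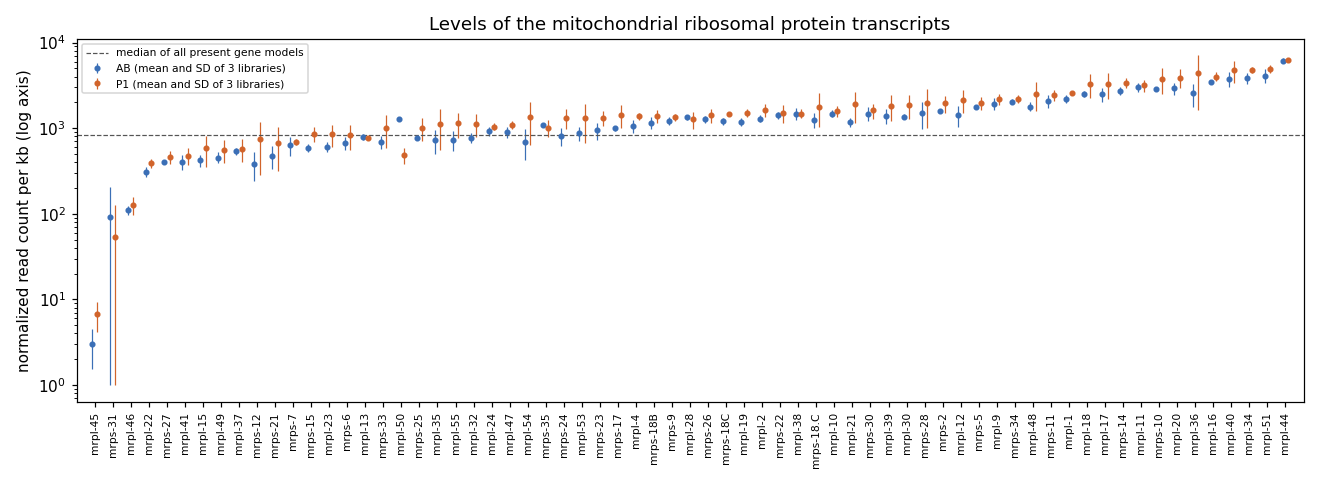
Normalized read count per kb of spliced length (log axis) of the 67 members, ordered by their mean over both cells. Points are means and bars SDs of the 3 libraries of AB (blue) and P1 (orange), the lower bars of mrps-31 were cut at 1, and the dashed line is the median of all present gene models (831). mrpl-45 is the lowest and mrpl-44 the highest, and mrpl-50 is the member whose AB value stands clear above its P1 value.

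To ask which members differ between the cells, P1 was compared with AB with edgeR's quasi-likelihood test over the 13717 gene models with any read, and P values were adjusted by the Benjamini-Hochberg method with a threshold of 0.10. One member passed, mrpl-50, which was lower in P1. That is 1 of 67, where 0.604% of present gene models were lower in P1. The number of calls thus does not set the family apart. No member was called higher in P1, where 0.856% of present gene models were. At an unadjusted P under 0.05, 6 members were higher in P1 (5.80% of present gene models were) and 1, mrpl-50, was lower. DESeq2 likewise called mrpl-50 and no member higher in P1.

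mrpl-50 encodes a large subunit protein that is specific to mitochondria. In the files it is T21B10.1, on chromosome II from 8929779 to 8930875 in ce10, with 3 exons in its longest transcript. Its normalized read counts were 1299.8, 1328 and 1234 in AB replicates 1 to 3. In P1 replicates 1 to 3 they were 439, 416 and 605. The lowest AB library was thus above the highest P1 library, and the direction was the same in all 3 replicates.

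The mean of mrpl-50 was 1287 ± 48.2 normalized read counts in AB and 487 ± 103 in P1 (SD, n = 3 each). The log2 fold change was -1.41 (standard error 0.27, edgeR adjusted P 0.0056), so that AB held 2.65 times the P1 level. Within replicates 1, 2 and 3 the log2 ratios were -1.57, -1.67 and -1.03. With replicate number added as a block, the log2 fold change was -1.43 (adjusted P = 0.032, edgeR). The edgeR adjusted P was 0.062 with only present gene models in the fit and 0.061 with the filter filterByExpr. The call was lost in 1 setting, the omission of both libraries of replicate 2, where the log2 fold change was -1.29 and the adjusted P 0.21.

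mrpl-50 lies between 2 genes on the same strand, an arrangement of the kind that operons have in C. elegans. Whether the 3 share a transcript was not tested. cct-2, a subunit of the cytosolic chaperonin that folds actin and tubulin, ends 25 bp upstream of it, and enol-1, the glycolytic enzyme enolase, starts 47 bp downstream. Neither showed the AB-high pattern. cct-2 had 27414, 25199 and 24348 normalized read counts in AB and 28658, 25326 and 21752 in P1, with overlapping cells and a log2 fold change of -0.030 (standard error 0.24). enol-1 had 44485, 33074 and 38891 in AB and 76432, 38767 and 37808 in P1, with a log2 fold change of 0.38 (standard error 0.28).

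Both neighbours had many more reads than mrpl-50, without regard to length. The mrpl-50 count was 4.74, 5.27 and 5.07% of the cct-2 count in AB replicates 1 to 3 and 1.53, 1.64 and 2.78% in P1 replicates 1 to 3. These shares did not overlap between the cells. The log2 ratio of mrpl-50 to cct-2 was lower in P1 by a difference of -1.39, and that of mrpl-50 to enol-1 by -1.75. Since mrpl-50 was singled out by its call, these ratios are a description and add no test to it.

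**Figure D2:**
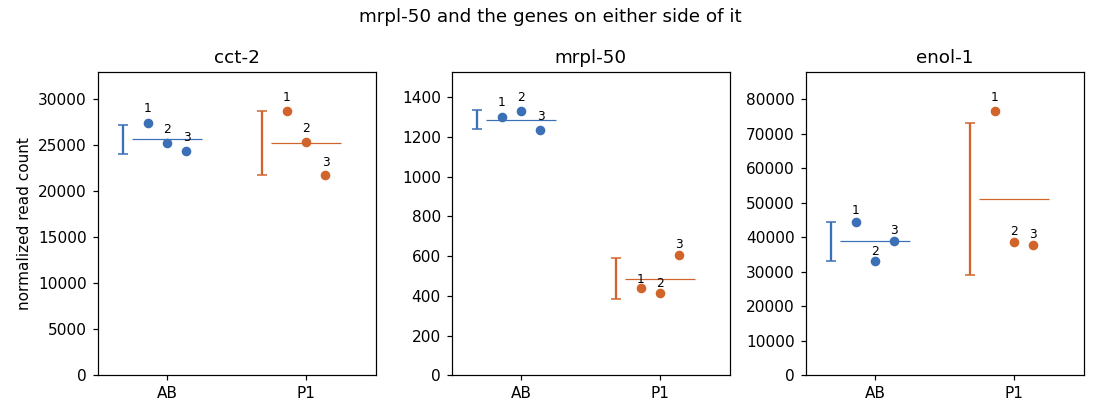
Normalized read counts of cct-2, mrpl-50 and enol-1, which follow each other on one strand, in AB (blue) and P1 (orange). Points are libraries with their replicate number, horizontal lines are means and the bars at the left SDs of 3 libraries, and each panel has its own linear axis from 0. mrpl-50 ranges from 1234 to 1328 in AB and from 416 to 605 in P1, while the cells overlap for cct-2 and enol-1.

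The other members lay mostly to the P1 side of 0 without passing the test. The log2 fold change was above 0 for 62 of 67 members with a median of 0.30, against 51.3% of all present gene models with a median of 0.012. The median was 0.32 over the 40 large subunit genes and 0.27 over the 27 small subunit genes. Members with a bacterial counterpart (41 genes, by the number in the name and with mrpl-47 and mrps-24 added) had a median of 0.33, and members specific to mitochondria (25 genes) had 0.22. Within replicates 1, 2 and 3 the median log2 ratios were 0.60, 0.15 and 0.065 for the first class and 0.49, 0.13 and 0.020 for the second. Their median spliced lengths were 747 and 1001 nt, and the part of length in this difference was not tested. mrps-28 was put in neither class.

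**Figure D3:**
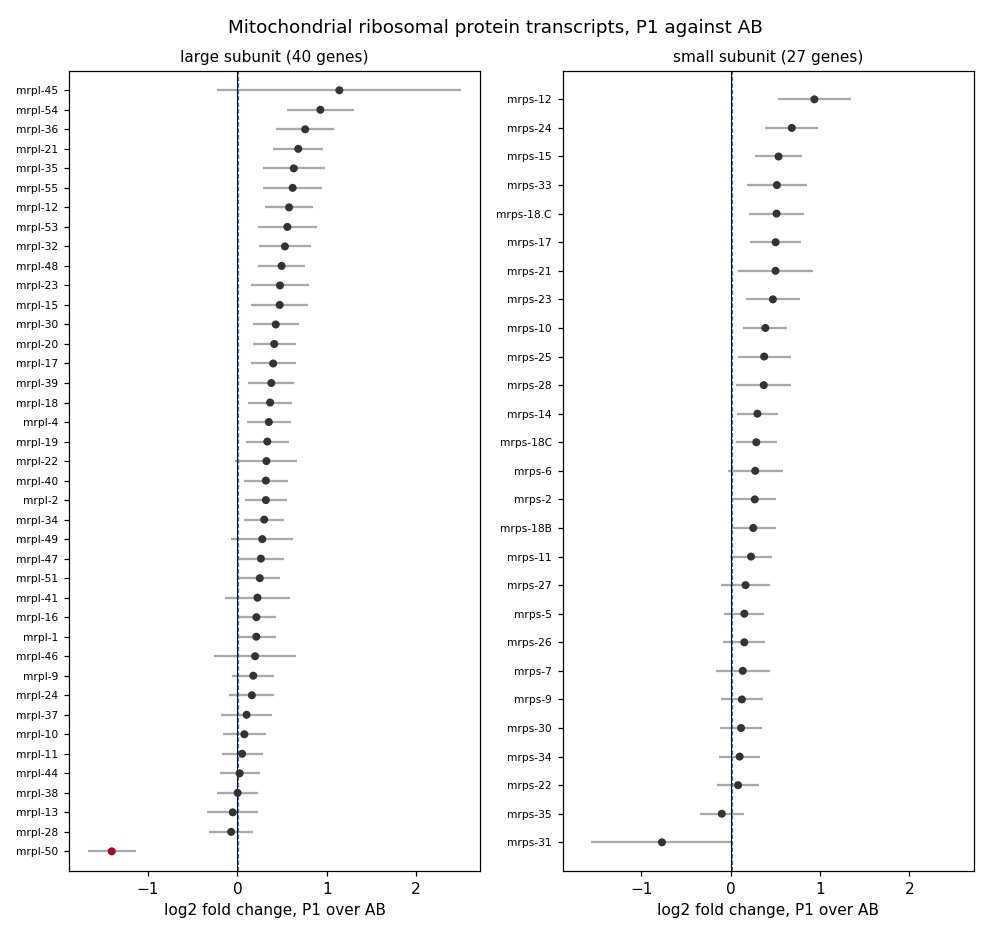
Log2 fold change of P1 over AB of the 40 large and 27 small subunit genes, from edgeR. Bars are standard errors, the dashed line is the median of all present gene models (0.012), and red marks the only member called, mrpl-50 (-1.41). Most other points lie between 0 and 1 on the P1 side.

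The size of this displacement differed between replicates. The median log2 ratio of the members was 0.60 in replicate 1, 0.14 in replicate 2 and 0.055 in replicate 3. The corresponding medians of all present gene models were -0.027, 0.0066 and -0.0014. Members above 0 numbered 59 of 67 in replicate 1, 54 in replicate 2 and 44 in replicate 3. Without P1 replicate 1 the median fold change of the members was 0.13 with 57 of 67 above 0, and without both libraries of replicate 1 it was 0.086 with 54 above 0. Of the 45 members that are given by name here for their level, change or role, 40 had a fold change above 0, of which 25 had one smaller by over 1.5 times, or below 0, without P1 replicate 1, and 2 had one larger by over 1.5 times. The yolk protein reads were also highest in replicate 1, in both cells, and their part in these values was not tested. The paper states that its samples were run on different Illumina sequencer models and read lengths, without naming the libraries. The part of these was not tested either.

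In replicate 1 the ratio followed transcript length. The members are short, with a median spliced length of 763 nt against 1546 nt for all present gene models. Spearman's rho between length and the log2 ratio over the 67 members was -0.78 in replicate 1, -0.0068 in replicate 2 and 0.16 in replicate 3. Over the 7806 present gene models with a length it was -0.52, -0.036 and 0.040. These are descriptions across genes of the same libraries, which are not independent replicates.

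The same is seen in the 12 members shorter than 600 nt. Their median log2 ratio was 1.35 in replicate 1, 0.19 in replicate 2 and 0.055 in replicate 3. The 16 members of 1200 nt or more had 0.14, 0.20 and 0.094. Among all present gene models, the median in replicate 1 was 1.10 below 600 nt and -0.36 from 1200 nt. mrpl-50, with 1001 nt, lay below -1 in each replicate.

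**Figure D4:**
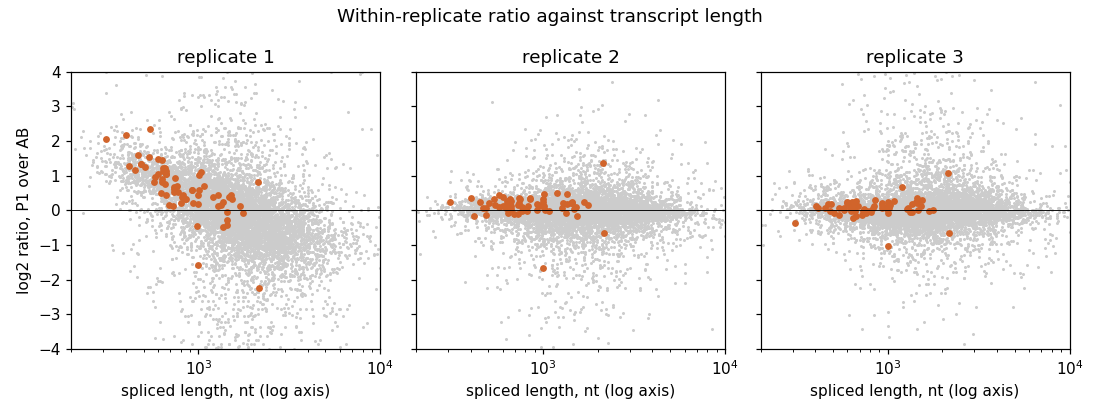
Log2 ratio of P1 over AB within each replicate against spliced length (log axis), for the 67 members (orange) and all present gene models with a length (grey, with values beyond 4 in either direction not shown). In replicate 1 the members fall with length (rho = -0.78), and in replicates 2 and 3 most lie near 0 at all lengths (rho = -0.0068 and 0.16).

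The 3 P1 libraries lay all above the 3 AB libraries for 18 members, where 7.10% of present gene models did. They lay all below for 1 member, mrpl-50, where 8.81% of present gene models did. The first count depended on the scaling, with 14 members (20.9%) above in TMM-scaled CPM, where 6.83% of present gene models were, and 4 (5.97%) in plain CPM, where 6.19% were. In plain CPM the members were thus at the level of all present gene models. Omitting P1 replicate 1 left 23 members with both remaining P1 libraries above AB, where 13.2% of present gene models were.

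Among these 18, mrps-15 had the largest log2 ratios in replicates 2 and 3 after the sparsely counted mrpl-45. Its product is the counterpart of a bacterial protein of the small subunit platform. It had 618, 756 and 752 normalized read counts in AB replicates 1 to 3 and 812, 1074 and 1204 in P1. The log2 fold change was 0.53 (standard error 0.27, edgeR adjusted P 0.65), and the replicate ratios were 0.39, 0.51 and 0.68. With P1 replicate 1 left out, mrps-15 passed the test (log2 fold change 0.66, adjusted P = 0.060, edgeR). In that setting it was 1 of 67 members (1.49%), where 3.21% of present gene models were called higher in P1. Without both libraries of replicate 1 its edgeR adjusted P was 0.11.

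mrps-24, named after its mammalian form and the counterpart of bacterial S3 at the entrance of the mRNA channel, had 371, 495 and 608 normalized read counts in AB and 1036, 641 and 708 in P1. Its log2 fold change was 0.68 (standard error 0.30, edgeR adjusted P 0.55). mrpl-21 had 645, 762 and 833 in AB and 1761, 870 and 990.1 in P1, with the same log2 fold change of 0.68. In both genes P1 replicate 1 was the highest library. Without it the log2 fold change was 0.43 for mrps-24 and 0.29 for mrpl-21. The other 15 of the 18 had log2 fold changes between 0.21 (mrpl-1 and mrpl-16) and 1.14 (mrpl-45): mrpl-4, mrpl-19, mrpl-20, mrpl-23, mrpl-34, mrpl-55, mrps-2, mrps-10, mrps-14, mrps-17, mrps-18C and mrps-23 lay between those. The row of mrpl-16 covers a second gene model, and mrps-23 shares its position with another gene.

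The largest fold changes to the P1 side after mrpl-45 belonged to short genes. mrps-12 (542 nt), whose bacterial counterpart lies at the decoding centre, had 134, 201 and 285 normalized read counts in AB and 683, 223 and 296 in P1. The log2 fold change was 0.94 (standard error 0.41, edgeR adjusted P 0.55). Replicate 1 had a log2 ratio of 2.34, against 0.15 and 0.055 in replicates 2 and 3.

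mrpl-54, the member with 1 exon (402 nt), had 187, 250 and 403 normalized read counts in AB and 857, 321 and 439 in P1, and a log2 fold change of 0.93. mrpl-36, the shortest member with 309 nt, had 551, 792 and 1020 in AB and 2318, 928 and 797 in P1, and a log2 fold change of 0.76. In all 3 of these genes the value of P1 replicate 1 was more than that of any other library, and the cells overlapped with and without it. Without P1 replicate 1 the log2 fold changes were 0.30 for mrps-12, 0.41 for mrpl-54 and 0.11 for mrpl-36, and without both libraries of replicate 1 that of mrpl-36 was -0.078.

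Only 5 members had a fold change below 0. Besides mrpl-50 these were mrps-31 with -0.77, mrps-35 with -0.10, mrpl-28 with -0.070 and mrpl-13 with -0.052. The last 3 were within 1 standard error of 0 and changed sign with the library left out. For mrpl-28 and mrpl-13 another gene on the opposite strand shares the deposited position.

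mrps-31, a small subunit protein specific to mitochondria, had the largest coefficient of variation of the 67 members in each cell, 124% in AB and 139.9% in P1. It had 61.0, 51.9 and 479 normalized read counts in AB replicates 1 to 3 and 12.2, 32.5 and 301 in P1. Replicate 3 was high in both cells, and P1 was lower than AB in each replicate (log2 ratios -2.23, -0.66 and -0.67). The log2 fold change had a standard error of 0.79 (adjusted P = 0.75 without and 0.60 with the replicate block, edgeR). Leaving out AB replicate 3 gave 1.05, and leaving out P1 replicate 3 gave -3.13 (adjusted P = 0.0013, edgeR).

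sel-8, a Notch pathway coactivator gene, lies next to mrps-31 on the same strand with a gap of 1216 bp. It was named after its values were seen. It had 149.8, 107 and 498 normalized read counts in AB and 148, 87.2 and 355 in P1, so that replicate 3 was high in both cells here too. Whether reads of one gene were counted on the other was not tested.

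Ordered by role, the proteins of the stalk and its base, which bring the translation factors to the ribosome, had log2 fold changes of 0.078 (mrpl-10), 0.053 (mrpl-11) and 0.58 (mrpl-12), none of them called. mrpl-12 had 789, 790.4 and 1232 normalized read counts in AB and 1847, 987 and 1395 in P1, so its cells overlapped, and another gene lies at its deposited position too. Its log2 fold change was 0.32 without P1 replicate 1. mrpl-1, the counterpart of the protein of the L1 stalk, had 0.21, but its row also covers a second gene model. mrpl-2, near the peptidyl transferase centre, had 0.32.

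The counterparts of proteins that line the bacterial exit tunnel or surround its end all lay to the P1 side, and none was called. Their log2 fold changes were 0.35 for mrpl-4, 0.33 for mrpl-22, 0.48 for mrpl-23, 0.16 for mrpl-24 and 0.26 for mrpl-47, the counterpart of bacterial L29. Their standard errors were 0.25 to 0.35, so the order of these 5 was not resolved. The omission of P1 replicate 1 gave 0.19 for mrpl-23 and 0.17 for mrpl-47. mrpl-22 had log2 ratios of 0.33, 0.35 and 0.31 in replicates 1 to 3, and its cells met at a single pair of libraries, 303 in AB replicate 3 and 303 in P1 replicate 1. For mrpl-24 another gene lies at the same deposited position. mrpl-37, specific to mitochondria, had 0.10, and mrps-30, which sits in the large subunit in mammals, had 0.11.

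On the small subunit, mrps-5, used to lower mitochondrial translation in C. elegans, had 2635, 2637 and 2465 normalized read counts in AB and 3450, 2714 and 2475 in P1. The cells overlapped, with a log2 fold change of 0.15 (standard error 0.22, edgeR adjusted P 0.82). mrps-2, mrps-7, mrps-9 and mrps-11, the counterparts of bacterial proteins of the head, body and platform, had log2 fold changes of 0.27, 0.13, 0.12 and 0.23. Those of mrps-2 and mrps-11 were 0.044 and 0.087 without P1 replicate 1. The mrps-18 family had 0.25 (mrps-18B), 0.29 (mrps-18C) and 0.51 (mrps-18.C), and 0.082, 0.30 and 0.097 without P1 replicate 1. mrpl-41, the other member under its own name in the files, had 240, 211 and 310 normalized read counts in AB and 338, 221 and 335 in P1, with a log2 fold change of 0.22.

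The members are spread over the autosomes, with 15 on chromosome I, 11 on II, 21 on III, 10 on IV and 10 on V. None is on X, where 11.4% of present gene models lie. Of the 61 members with a position of their own, 30 (49.2%) had a gene model on the same strand within 500 bp, against 35.8% of present and 26.3% of all gene models. Of these, 7 members had one on each side.

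Some of these neighbours also serve the mitochondrion. mrps-2 and mrpl-4 follow each other with a gap of 111 bp, and their log2 fold changes were 0.27 and 0.35. dap-3, itself a protein of the small subunit under another name, lies 98 bp upstream of mrps-22. wars-2, a mitochondrial tryptophanyl-tRNA synthetase gene, starts 45 bp downstream of mrps-26. It had 1144, 1049 and 1082 normalized read counts in AB and 327, 814 and 1012 in P1. Its log2 fold change was -0.60 (edgeR adjusted P 0.66), and P1 replicate 1 was its lowest library. All its P1 libraries lay below its AB libraries, where 8.81% of present gene models did. Over the 33 present neighbours that were not members the median log2 fold change was -0.0042. None was called with edgeR or DESeq2, and 2 had an unadjusted P under 0.05. Of 7945 present gene models, 461 were higher and 365 lower in P1 at that threshold.

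dap-3 had 947, 1164 and 1411 normalized read counts in AB and 1102, 1108 and 1207 in P1, a log2 fold change of -0.051 and overlapping cells. mrps-22 had 1943, 2260.1 and 1887 in AB and 1602, 2626 and 2234 in P1, a log2 fold change of 0.081. The pair from this position was thus near 0.

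Other genes of mitochondrial gene expression and function were read from lists of their own. None of the 5 mitochondrial translation factors, 4 genes of mitochondrial DNA replication and transcription, 15 of import and chaperones, 8 present genes of quality control and 26 of the respiratory chain was called in either direction. At an unadjusted P under 0.05, 5.80% of present gene models were higher in P1. So were 7 of 15 genes of import and chaperones, 1 of 8 of quality control and 2 of 26 of the respiratory chain. DESeq2 called 1 gene of these lists, mppa-1, where it called 95 of 7945 present gene models higher in P1. The median log2 fold changes of the 5 lists were 0.026, 0.24, 0.55, 0.13 and 0.31. Without P1 replicate 1 they were 0.026, 0.17, 0.20, 0.10 and 0.0075, and mppa-1 and Y105E8A.23 (rpom-1, the mitochondrial RNA polymerase) were called higher in P1, in a setting where 3.21% of present gene models were.

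The largest log2 fold changes to the P1 side were 1.09 for mppa-1, a subunit of the peptidase that removes import sequences, and 0.97 for tin-9.1, a small chaperone of the intermembrane space. mppa-1 had 325, 410 and 649 normalized read counts in AB and 762, 1052 and 1144 in P1. All P1 libraries were thus above all AB libraries, as they were for 7.10% of present gene models. The replicate ratios of mppa-1 were 1.22, 1.36 and 0.82 (adjusted P = 0.13, edgeR). tin-9.1 had 319, 424 and 587 in AB and 1587, 455 and 593 in P1, where replicate 1 stood apart.

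To the AB side, the largest in these lists were -0.26 for spg-7 and -0.20 for C34B2.6 (lonp-1), the Lon protease of the matrix. spg-7 is a protease of the inner membrane that in yeast and mammals processes MRPL32. wars-2, which is in none of these lists, had -0.60. spg-7 had 286, 409 and 1311 normalized read counts in AB and 129, 477 and 1067 in P1. Replicate 3 was its highest in both cells, as for mrps-31. mrpl-32 itself had a log2 fold change of 0.53 and was not called.

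The 77 present cytosolic ribosomal protein genes were displaced further to the P1 side, with a median log2 fold change of 0.69, 77 of 77 above 0. None was called with edgeR or DESeq2, and 62 were higher in P1 at an unadjusted P under 0.05, where 5.80% of present gene models were. The paper's own DESeq test did call some of them, since it counts rpl and rps genes among its short P1-enriched transcripts. Their replicate medians were 1.18, 0.16 and 0.52, against 0.60, 0.14 and 0.055 for the mitochondrial ones. Their median spliced length was 520 nt, and the part of length in the difference between the families was not tested. Without P1 replicate 1 the medians of the log2 fold change were 0.38 for the cytosolic and 0.13 for the mitochondrial family, and 13 cytosolic members (16.9%) were called higher in P1, where 3.21% of present gene models were. With a library or a replicate number left out, the number of cytosolic members called higher ran from 0 to 50, the most without P1 replicate 2, where 3.57% of present gene models were called higher.

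**Figure D5:**
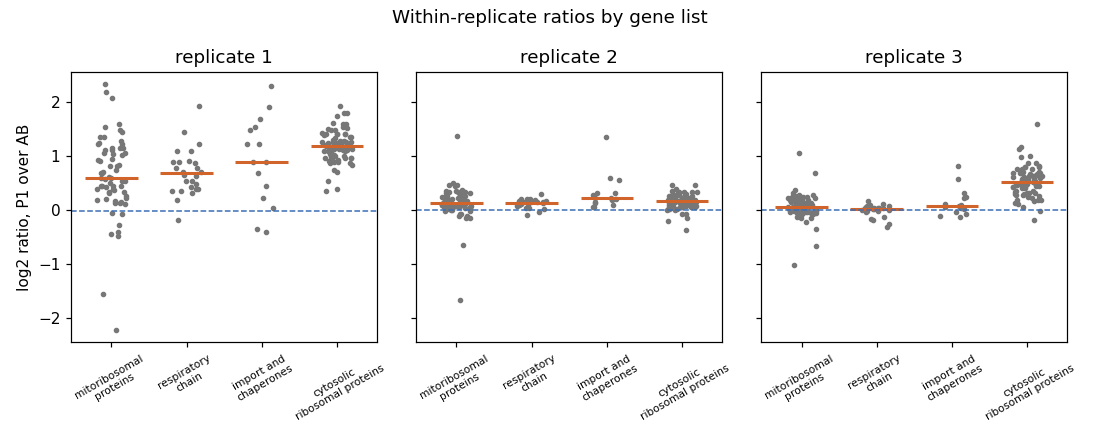
Log2 ratio of P1 over AB (normalized read counts with 1 added) in replicates 1, 2 and 3, for the 67 mitochondrial ribosomal protein genes, 26 respiratory chain genes, 15 genes of import and chaperones and 77 cytosolic ribosomal protein genes. Points are genes, orange lines the list medians and the dashed line the median of all present gene models. The mitochondrial ribosomal protein median is 0.60 in replicate 1 and 0.14 and 0.055 in replicates 2 and 3, where the cytosolic family has 0.16 and 0.52.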

How the data were processed

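RNA-amp-seq libraries of 3 AB and 3 P1 pools were grouped by their labels. Raw counts for each gene model were deposited, from reads aligned to ce10 with TopHat 1.4.0 and counted with HTSeq 0.5.3, together with a normalized signal, those counts over 1 DESeq 1.2.1 size factor per library. The use of strand in counting is not given in the sources used here, so 6 members at a position shared with another row and 2 whose row holds another gene model are uncertain. Columns of other samples numbered 0.

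In R 4.3.3, edgeR 4.0.16 replaced DESeq and was run on the raw counts with glmQLFit, glmQLFTest and TMM, without a block. DESeq2 1.42.0 was an alternative. Python 3.11.15, scipy 1.17.1 and matplotlib 3.10.9 were used for the rest. The edgeR step was tested on simulated data. Ratios within a replicate number used normalized read counts plus 1. Lengths, exons and strands are those of the longest transcript in WBcel235, found for all 67 members by identifier. Coordinates are those of the files.

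Members and lists were chosen with earlier results of these data known, and the rule was applied to current names after the names in the files were seen. Text names members that were called, did not overlap between cells, had the 5 largest changes in each direction, the 4 highest or lowest levels per kb, or a fixed role, and, from the other lists, dap-3 and the 2 largest changes in each direction. Outside these rules it also names mrpl-32, mrpl-41, mrps-22, mrps-26 and mrps-28, which are not among the 45 members followed through the omissions.

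Replicate numbers pair the libraries, since matched cells were pooled. Deviations from the mean of a cell correlated within numbers 1, 2 and 3 by 0.17, 0.22 and 0.17. Protein features and sequences were not analysed here.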

Additional observations from a re-analysis of the deposited data

How the results depend on the processing

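The mrpl-50 call held under DESeq2, median-of-ratios scaling, 2 other filters, the replicate block and the omission of any 1 library. In the main fit it also held at an adjusted p under 0.05. Under the 2 other filters it did not, with edgeR adjusted p of 0.062 (only present gene models in the fit) and 0.061 (filterByExpr). With a library or a replicate number left out, 0 to 2 members were called lower and 0 to 3 higher in P1. The added calls were mrps-31 (without P1 replicate 3), mrps-15 (without P1 replicate 1), and mrpl-36, mrpl-54 and mrps-12 (without P1 replicate 2, mrpl-36 also without P1 replicate 3). In these settings 1.77% of present gene models were called lower without P1 replicate 3, and 3.21, 3.57 and 1.80% higher without P1 replicates 1, 2 and 3. mrpl-50 was not called without AB and P1 replicate 2. The members' median log2 fold change was 0.30 with the replicate block and ran from 0.086 to 0.41 with libraries or replicate numbers left out. The number of members above 0 ran from 54 to 65, an alternative chosen after seeing the data. The block changed no call of a member, with 1 called lower and 0 higher.

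Called gene models among all present were 48 lower and 68 higher in P1. With only present gene models in the fit they were 25 and 27, with filterByExpr 26 and 27, with DESeq2 75 and 95, with the replicate block 40 and 51, and with omissions 27 to 279 and 44 to 293. Members with all P1 libraries above AB were 18 (7.10% of present gene models were), 4 in plain CPM (6.19%), and 22 to 32 with a P1 library left out (11.9 to 14.2%), chosen after seeing the data. The median level was 1512 normalized read counts per kb of coding length. A pseudocount of 5 moved no replicate median by more than the spread, a gap limit of 1000 bp gave 38 members with a neighbour, and a mean of at least 50 left 66 present. The cause of these changes was not tested.

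Of the 45 members named by the rules above, 15 changed sign in at least 1 omission, none of them called in that setting. Over the omissions the log2 fold change ran from -0.057 to 0.15 for mrpl-10, -0.077 to 0.16 for mrpl-11, -0.14 to 0.011 for mrpl-13, -0.20 to 0.083 for mrpl-28, -0.078 to 1.27 for mrpl-36, -0.063 to 0.32 for mrpl-37, -0.071 to 0.58 for mrpl-40, -0.043 to 0.078 for mrpl-44, -0.0015 to 0.32 for mrpl-46, -0.0028 to 0.41 for mrps-11, -0.058 to 0.24 for mrps-30, -3.13 to 1.05 for mrps-31, -0.30 to 0.066 for mrps-35, -0.014 to 0.26 for mrps-5 and -0.068 to 0.31 for mrps-7. That of mrpl-50 ran from -1.62 to -1.29. With 3 libraries per cell, the standard error of a member's log2 fold change was 0.26 at the median and 0.22 to 1.37 over the 67 members, which sets the size of difference that could be called.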
